A study of Saccharomyces cerevisiae with 50 samples.

Results

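The genes described here are the 74 open reading frames of the array whose standard symbol was UTP, NOP, RRP, NOC, NUG, NOG, DBP or RPA followed by a digit, out of 6204 frames in all. They were chosen by symbol and not by any measured value, so that the list also takes in DBP1 and DBP5, helicases known mainly for their work on mRNA. The rule matched 75 symbols of the R64 gene table, and NOP10 was not analysed here. By role, 25 of the genes act in assembly of the 60S subunit, 12 belong to the UtpA, UtpB or UtpC complex (6, 4 and 2 genes), 18 are other early 40S factors, 3 are core proteins of small nucleolar ribonucleoproteins, 7 are subunits of RNA polymerase I, 7 belong to the exosome and 2 are the mRNA helicases. Subunits of these complexes that carry other symbols are not in these counts, and some are among the other biogenesis genes described below.

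Budding yeast cells of the strain W303 had been arrested with the mating pheromone alpha factor, which holds MATa cells in G1, and released into YEPD, a rich glucose medium. Total RNA was taken at 25 time points, every 5 min from 0 to 120 min, and each time point was compared on 2 two-colour arrays with RNA of an asynchronous culture grown overnight in YEPD, once with the sample in Cy3 and once with the dyes exchanged. The labels name no second culture and call the exchanged dyes technical repeats, so the pair was averaged, a time point counted once, and p-values measured only the spread among time points of 1 course. Alpha factor release was the only synchronisation, so that time in the first cycle is also time since removal of pheromone and since transfer to fresh medium.

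Eukaryotic ribosomes are built in the nucleolus, where RNA polymerase I transcribes a long precursor of the large rRNAs and the Utp proteins with the U3 small nucleolar RNA gather on it as the small subunit processome. Other nucleolar proteins, among them DEAD-box helicases and GTPases, shape the 60S precursor, and the exosome trims rRNA 3′ ends. In budding yeast the genes of these factors are known to be regulated together with growth and nutrient supply, through the TOR and PKA pathways and regulators such as Sfp1, Stb3, Dot6 and Tod6, and most of the factors are essential.

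Values are log2 of sample over reference. The deposited table states neither its log base nor its direction. That it holds log10 of Cy5 over Cy3 was inferred from the limit of its values at 100-fold and from pheromone-induced MATa genes at 0 min, where AGA2, a subunit of a-agglutinin, read 4.60 and STE2, the alpha factor receptor, 2.05, while the 4 MATalpha genes examined lay between -0.21 and 0.29. That direction is likely rather than stated, and every direction below rests on it. Of 51 cell cycle genes, 50 were periodic, and their mean fit was best at a period of 66 min. At 0 min the median of the 74 genes was -0.39 with the sample in Cy3 and 0.05 with the sample in Cy5. The 105 min arrays stood apart from their neighbours over all frames. The labels' dates split the Cy3 samples into 2 batches (0 to 55 and 60 to 120 min) and the Cy5 samples into 6. Of 3700 values of the 74 genes, 4 were missing (3 of NOP13 and 1 of RPA43), and 11 lay at the deposited limit, 7 of them in UTP9 and 1 each in NOC2, NOP13, NUG1 and UTP18.

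The ribosome biogenesis factor genes shared a shallow course with a low point about 15 min after release and a high point about 50 min. The median of their pair means was -0.16 at 5 min and -0.52 at 15 min. It reached -0.06 at 50 min, lay at -0.41 and -0.43 at 80 and 85 min, and had returned to -0.15 by 100 min. From 15 to 50 min 70 of the 74 genes were higher at the later time, 67 of them on both dye orientations, against 55.8% of all frames, and both times carried the same date within each orientation. The median difference between these times was 0.48, against 0.05 over all frames. The times compared here and in the next paragraph were not set beforehand. Most lie at or near turns of these genes' own median course. A high share among the 74 genes is therefore partly fixed by that choice, while the share of all frames is not.

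The other flanks of the course were shared to differing degrees. At 15 min 69 genes read below their 5 min value, 64 on both orientations, against 57.0% of all frames. At 80 min 70 genes read below their 50 min value, 63 on both orientations, against 53.4% of all frames, and these times differed in date. The later return was less even. At 100 min 65 genes were above their 80 min value, 54 on both orientations, against 54.3% of all frames, but at 115 min 53 were, 41 on both orientations, against 53.7%. The median after 100 min was -0.33, -0.21 and -0.25 at 105, 110 and 115 min. The 5 min and 50 min medians thus lay close to the reference and the 15 min and 80 to 85 min medians below it, with the same order in each dye orientation.

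**Figure D1:**
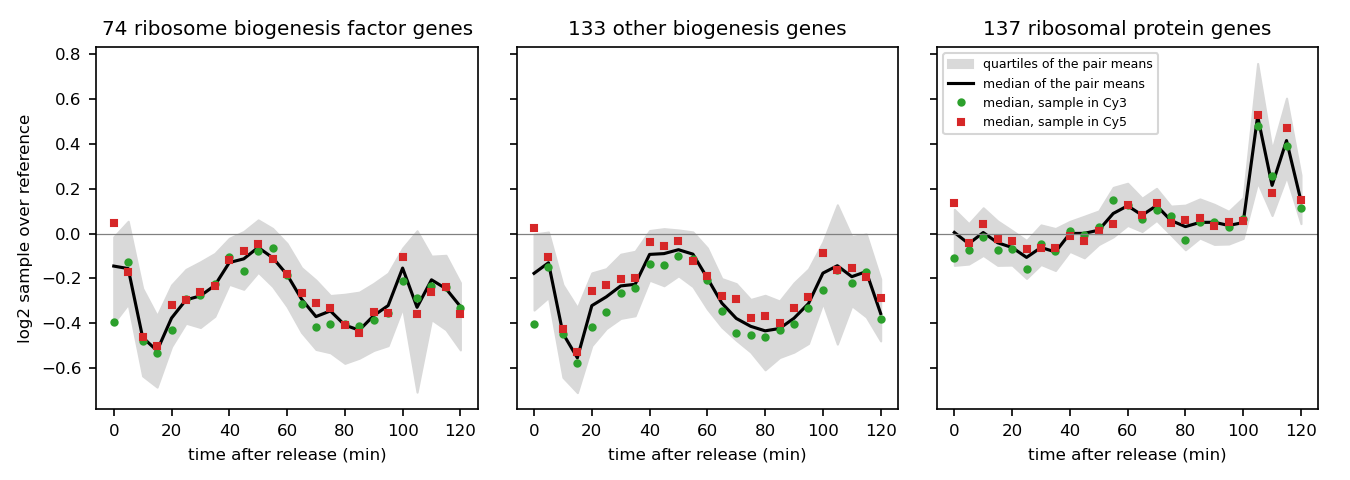
Median log2 ratio of sample over reference against time after release for the 74 ribosome biogenesis factor genes, 133 other biogenesis genes and 137 ribosomal protein genes. Grey bands are quartiles over genes, black lines medians of the pair means, green circles and red squares medians of each dye orientation. The first 2 lists are low at 15 min and 80 to 85 min and highest near 50 min, and the ribosomal protein genes show a level near 0 until 100 min and peaks at 105 and 115 min.

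Whether the single genes followed the cycle was tested with a sine and a cosine of 66 min beside a linear trend (limma's moderated F test, Benjamini-Hochberg adjustment over all 6204 frames, threshold 0.05). In this fit 36 of the 74 genes (48.6%) were periodic, against a background of 33.7% of all frames. In the pair mean and also in each dye orientation alone, 22 genes (29.7%) were periodic, against 16.5%. The amplitude, which is the height of the cosine above its midline, lay between 0.11 and 0.34 log2 units in the 36 periodic genes with a median of 0.21, the same as the median over all periodic frames. The periodic genes were shallow beside the cell cycle genes, whose median amplitude was 1.12.

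With the combination of array dates as a block, 18 genes (24.3%) were periodic against 24% of all frames (1487), so that the share of periodic genes stood at the background. Of the 36 genes called without the block 16 were among these 18, and NOC3 and NOP6 were added. Within the Cy3 arrays of the first date 2 genes passed (13.4% of all frames did) and within those of the second date 6 (11.0%).

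The fitted peak times were narrow. All 36 periodic genes peaked between 41.3 min (RRP15) and 59.3 min (RRP6) with a median of 47.3 min, whereas 38.0% of all 2089 periodic frames peaked between 40 and 60 min. Over all 74 genes, periodic or not, 65 had their fitted peak in that window against 36.3% of all frames. The 18 genes periodic with dates as a block peaked between 40.9 and 55.3 min in that fit, where 35.4% of all periodic frames had a peak between 40 and 60 min.

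**Figure D2:**
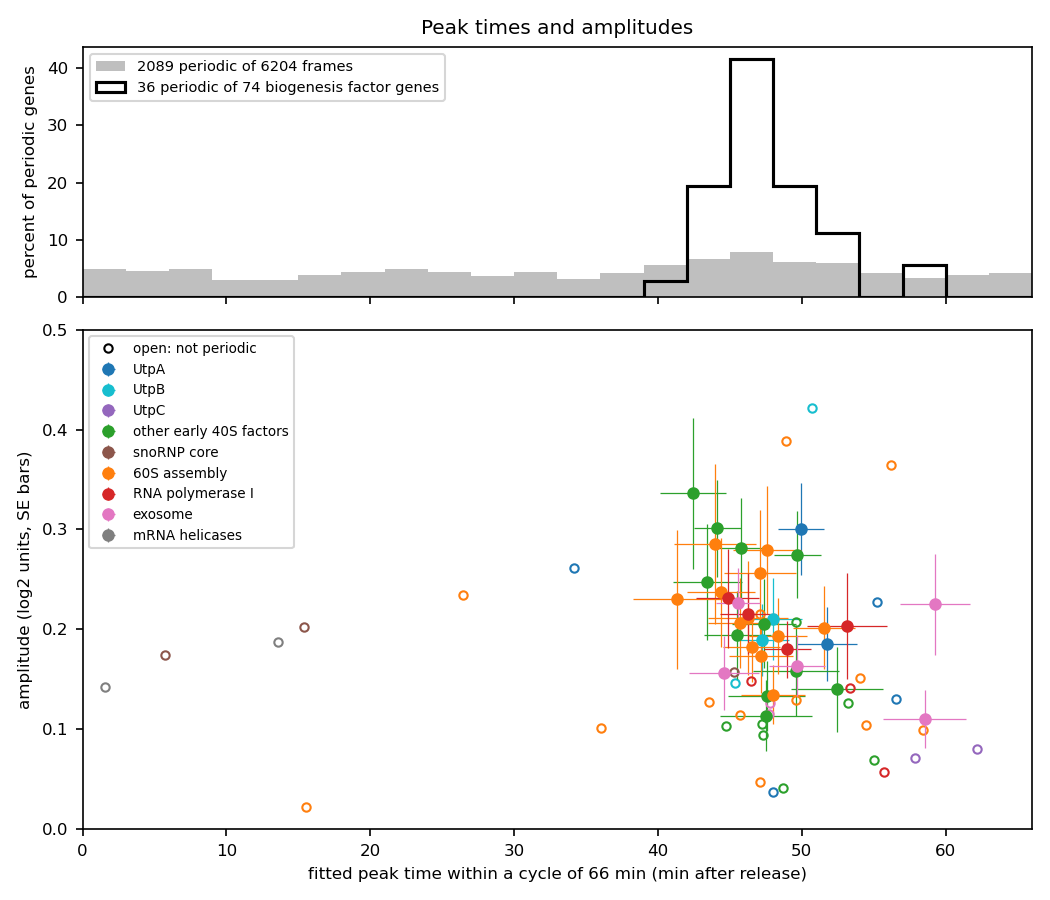
Top, distribution of fitted peak times within the 66 min cycle for the 2089 periodic frames (grey) and the 36 periodic ribosome biogenesis factor genes (black line), in percent of each list. Bottom, amplitude in log2 units against peak time of the 74 genes, coloured by role, with standard errors for the 36 periodic genes (filled). The filled points lie between 41.3 and 59.3 min.

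UtpA is the complex that first binds the rRNA precursor, and some of its proteins are also tied to its transcription, which gave them the name t-UTPs. Of its 6 genes that match the symbol rule UTP10 and UTP15 were periodic. UTP10 (YJL109C), which encodes the largest UtpA protein, read -0.57 and -0.44 at 15 min (sample in Cy3 and in Cy5), 0.25 and 0.42 at 50 min, and -0.56 and -0.61 at 80 min. At 100 min it read -0.10 and -0.03. Its 25 pair means ran from -0.58 at 80 min over a median of -0.33 to 0.34 at 50 min, and the orientations kept the same order at these times. Its amplitude was 0.30 ± 0.05 (SE, n = 25 time points), a peak-to-trough fold of 1.52, with a peak at 50.0 ± 1.59 min (adjusted p = 9.69e-05), and it was also periodic with dates as a block (adjusted p = 0.0308). UTP15 had an amplitude of 0.19 (adjusted p = 0.0016) but was not periodic with the sample in Cy3 alone (adjusted p = 0.0729) or with dates as a block (0.421). UTP4 and UTP8 had amplitudes of 0.23 and 0.13 (adjusted p = 0.0839 and 0.149), UTP5 varied least (0.04), and UTP9 could not be read with the sample in Cy3, where 7 arrays sat at the limit. In the Cy5 orientation alone UTP9 was periodic (adjusted p = 0.0191).

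UtpB, a scaffold complex that joins the precursor next to UtpA, had UTP13 and UTP21 periodic among its 4 genes that match the symbol rule. UTP13 read -0.76 and -0.58 at 15 min, -0.14 and -0.06 at 50 min and -0.68 and -0.67 at 80 min. Its amplitude was 0.21 ± 0.04 (SE, n = 25) and its peak at 48.0 min (adjusted p = 0.0011, and 0.0295 with dates as a block). UTP21 had an amplitude of 0.19 and a peak at 47.2 min (adjusted p = 9.13e-04, but 0.153 with dates as a block), and UTP6 missed the threshold (0.15, adjusted p = 0.0644). UTP18 had the highest fitted amplitude of all 74 genes, 0.42 ± 0.19, and did not pass (adjusted p = 0.188): its 90 min value with the sample in Cy3 sat at the lower limit, and with the sample in Cy5 alone it was periodic with an amplitude of 0.18 (adjusted p = 0.0102). UtpC is a small complex that also binds a regulator of ribosomal protein genes, and its genes UTP22 and RRP7 were not periodic (adjusted p = 0.704 and 0.66, with 0 passing at an unadjusted p under 0.05).

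Among the 18 other early 40S factors 11 were periodic. DBP8 (YHR169W), a DEAD-box helicase, read -1.13 and -0.91 at 15 min, -0.24 and 0.02 at 45 min, and -0.84 and -0.61 at 80 min. At 100 min it read -0.36 and -0.11. Its pair means ran from -1.09 at 10 min over -0.41 to -0.11 at 45 min. The amplitude was 0.30 ± 0.05 with a peak at 44.1 ± 1.64 min (adjusted p = 1.80e-04, and 0.0048 with dates as a block). At 0 min the orientations disagreed for DBP8, at -0.76 and 0.39.

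UTP20 (YBL004W), a very large HEAT-repeat protein of the processome, read -0.69 and -0.62 at 15 min, 0.19 and 0.14 at 55 min and -0.62 and -0.56 at 80 min. Its pair means ran from -0.66 over -0.29 to 0.17, so that its first-cycle high lay above the reference on both orientations. The amplitude was 0.27 ± 0.04 with a peak at 49.7 min (adjusted p = 1.62e-04, and 0.0175 with dates as a block). UTP14 (YML093W), which activates the helicase that removes U3 from the precursor, read -0.29 and -0.62 at 15 min, 0.03 and 0.02 at 50 min and -0.84 and -0.71 at 75 min. Its amplitude was 0.28 ± 0.05 (adjusted p = 5.52e-04), but it missed the threshold with dates as a block (0.063). UTP30 (YKR060W), related to a ribosomal protein of the large subunit, read -0.49 and -0.60 at 15 min and 0.28 and 0.26 at 50 min, with an amplitude of 0.25 ± 0.06 (adjusted p = 0.0067, and 0.0175 with dates as a block).

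UTP23, which acts on the small nucleolar RNA snR30, had the highest amplitude of the periodic genes, 0.34 ± 0.08, with a peak at 42.4 min (adjusted p = 0.0046, and 0.0141 with dates as a block). It fell short in the Cy5 orientation alone (adjusted p = 0.0526), and its highest values were those of 105 min, 0.39 and 1.13. The helicase-like UTP25 and NOC4, a partner of NOP14, had amplitudes of 0.21 and 0.19 and peaks at 47.4 and 45.5 min (adjusted p = 0.0032 and 0.0049, but 0.148 and 0.0938 with dates as a block). RRP36, RRP5, RRP3 and UTP7 were also periodic with amplitudes from 0.11 to 0.16, and with dates as a block RRP5 passed (adjusted p = 0.005) while RRP36, RRP3 and UTP7 did not (0.257, 0.228 and 0.15). NOP14, UTP11, NOP19, RRP9, RRP12, NOP9 and NOP6 were not (adjusted p from 0.13 to 0.824).

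**Figure D3:**
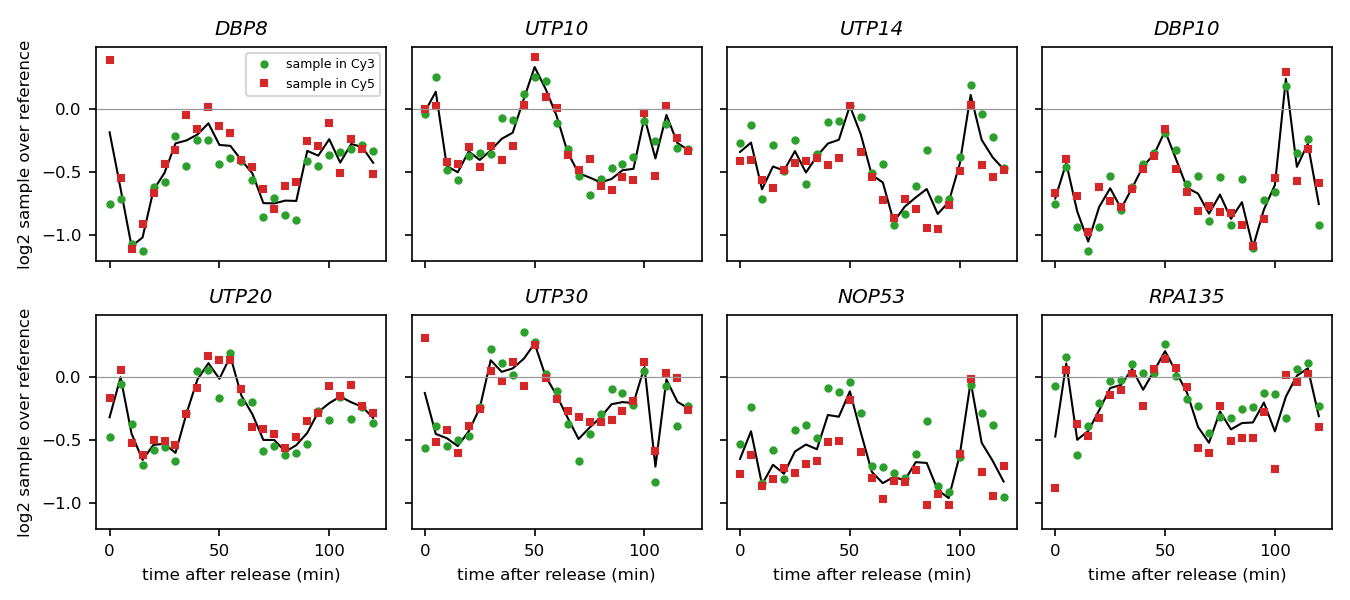
Log2 sample over reference against time after release for the 8 genes with the largest amplitude among those periodic in the pair mean and in each dye orientation. Green circles are arrays with the sample in Cy3, red squares those with the sample in Cy5, and lines join pair means. Each gene shows a maximum between 45 and 55 min in the first cycle and low values at 70 to 95 min, and UTP14, DBP10, NOP53 and UTP30 depart from their neighbours at 105 min.

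Of the 25 genes for 60S assembly 12 were periodic, with peaks between 41.3 and 51.5 min. DBP10 (YDL031W), a DEAD-box helicase, read -1.13 and -0.98 at 15 min, -0.19 and -0.16 at 50 min and -0.92 and -0.82 at 80 min. Its pair means ran from -1.10 over -0.67 to 0.24, the highest being that of 105 min, and the 2 orientations differed little at the times given. The amplitude was 0.28 ± 0.06 with a peak at 47.6 min (adjusted p = 0.0056, and 0.0156 with dates as a block). NOP53 (YPL146C), which docks the exosome's helicase on the 60S precursor, read -0.58 and -0.81 at 15 min, -0.04 and -0.18 at 50 min and -0.61 and -0.74 at 80 min. Its amplitude was 0.24 ± 0.05 (adjusted p = 0.0059), and it was not periodic with dates as a block (0.217).

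NOP4 and NOP7, an RNA-binding protein and the yeast relative of pescadillo, had amplitudes of 0.29 and 0.26 (adjusted p = 0.0236 and 0.009), and both had their highest value at 105 min. The GTPase genes NOG1 and NOG2 had amplitudes of 0.18 and 0.21 and peaks at 46.5 and 46.3 min (adjusted p = 0.0012 and 0.0186), and the intron of NOG2 holds the small nucleolar RNA gene SNR191. The rRNA methyltransferase genes NOP2 and RRP8 peaked at 45.7 and 48.3 min with amplitudes of 0.21 and 0.19 (adjusted p = 0.0036 and 0.0014). NOP15, NOP8, DBP9 and RRP15 completed the periodic genes of this role. With dates as a block DBP10, NOP7, NOG1 and RRP8 of the 12 passed (adjusted p from 0.0156 to 0.0468). NOP4 and NOP8 missed the threshold at 0.0641 and 0.0643, and NOP15, RRP15, NOG2, NOP53, NOP2 and DBP9 had adjusted p from 0.101 to 0.377 in that fit.

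NUG1 and NOC2, a GTPase and a protein of the pre-60S Noc complexes, had fitted amplitudes of 0.39 and 0.36 and did not pass (adjusted p = 0.256 and 0.253). Each held 1 value at the lower limit (NUG1 at 15 min with the sample in Cy5, NOC2 at 25 min with the sample in Cy3), and each was periodic in the other orientation alone (adjusted p = 0.0047 and 0.0094). NOP13 had a value at the upper limit at 10 min with the sample in Cy3, and its orientations correlated at -0.25 over the 25 times. DBP2, NOC3, DBP3, DBP6, DBP7, NOP12, NOP16, RRP1, RRP14 and RRP17 did not pass either (adjusted p from 0.0526 to 0.654).

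RNA polymerase I makes the rRNA precursor, and 4 of its 7 subunit genes with an RPA symbol were periodic, all 4 in each dye orientation too. RPA135 (YPR010C), its second largest subunit, read -0.39 and -0.46 at 15 min, 0.27 and 0.15 at 50 min and -0.32 and -0.51 at 80 min. Its amplitude was 0.23 ± 0.05 with a peak at 44.8 min (adjusted p = 0.0028), not passing with dates as a block (0.119). Its 0 min values differed, at -0.07 and -0.88.

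RPA12, the subunit for transcript cleavage, had an amplitude of 0.18 ± 0.03 and a peak at 49.0 min (adjusted p = 1.61e-04) and was periodic with dates as a block (0.0066). The stalk genes RPA43 and RPA14 peaked at 46.3 and 53.1 min with amplitudes of 0.22 and 0.20 (adjusted p = 9.45e-04 and 0.0147, and 0.101 and 0.0477 with dates as a block). RPA14 overlaps the frame YDR157W, with which its signal may be shared. RPA34 had an amplitude of 0.15 and a peak at 46.5 min but missed the threshold (adjusted p = 0.0644). RPA190, the largest subunit, and RPA49, which pairs with RPA34, did not pass (adjusted p = 0.192 and 0.79), and both had their lowest value at 105 min, -0.97 and -1.18.

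Of the exosome, whose nuclear form trims the 5.8S rRNA, 5 of the 7 genes with an RRP symbol were periodic. RRP40, one of its RNA-binding cap subunits, read -0.74 and -0.60 at 15 min, -0.15 and 0.24 at 45 min, and -0.60 and -0.11 at 85 min. At 100 min it read -0.13 and 0.06. With the sample in Cy3 it lay lower throughout these times, by a mean of 0.30 over the course, but both orientations moved in the same order. Its amplitude was 0.23 ± 0.03 with a peak at 45.6 ± 1.55 min, and its adjusted p of 9.19e-05 was the lowest among the 74 genes (0.0097 with dates as a block). The cap gene RRP4 peaked at 44.6 min (0.16, adjusted p = 0.0074). RRP6, the nuclear exonuclease, and RRP42, a ring subunit, peaked later than the others at 59.3 and 58.5 min (adjusted p = 0.0048 and 0.0159), and the ring gene RRP46 at 49.7 min (adjusted p = 8.53e-04). The ring genes RRP45 and RRP43 missed the threshold (adjusted p = 0.071 and 0.0813). With dates as a block RRP6 and RRP46 passed (adjusted p = 0.005 and 0.0279), and RRP4 and RRP42 did not (0.201 and 0.544).

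Of the 3 genes for core proteins of box C/D ribonucleoproteins, which guide rRNA methylation, 0 passed limma's test after adjustment and 1 did at an unadjusted p under 0.05. NOP1, the methyltransferase fibrillarin, had an amplitude of 0.16 and a peak at 45.3 min (adjusted p = 0.0534). NOP56 and NOP58 had adjusted p of 0.614 and 0.547 and are described at 105 min. The mRNA helicases peaked elsewhere in the fit, DBP5 at 1.54 min and DBP1 at 13.6 min, and were not periodic (adjusted p = 0.0887 and 0.0907, with both passing at an unadjusted p under 0.05).

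**Figure D4:**
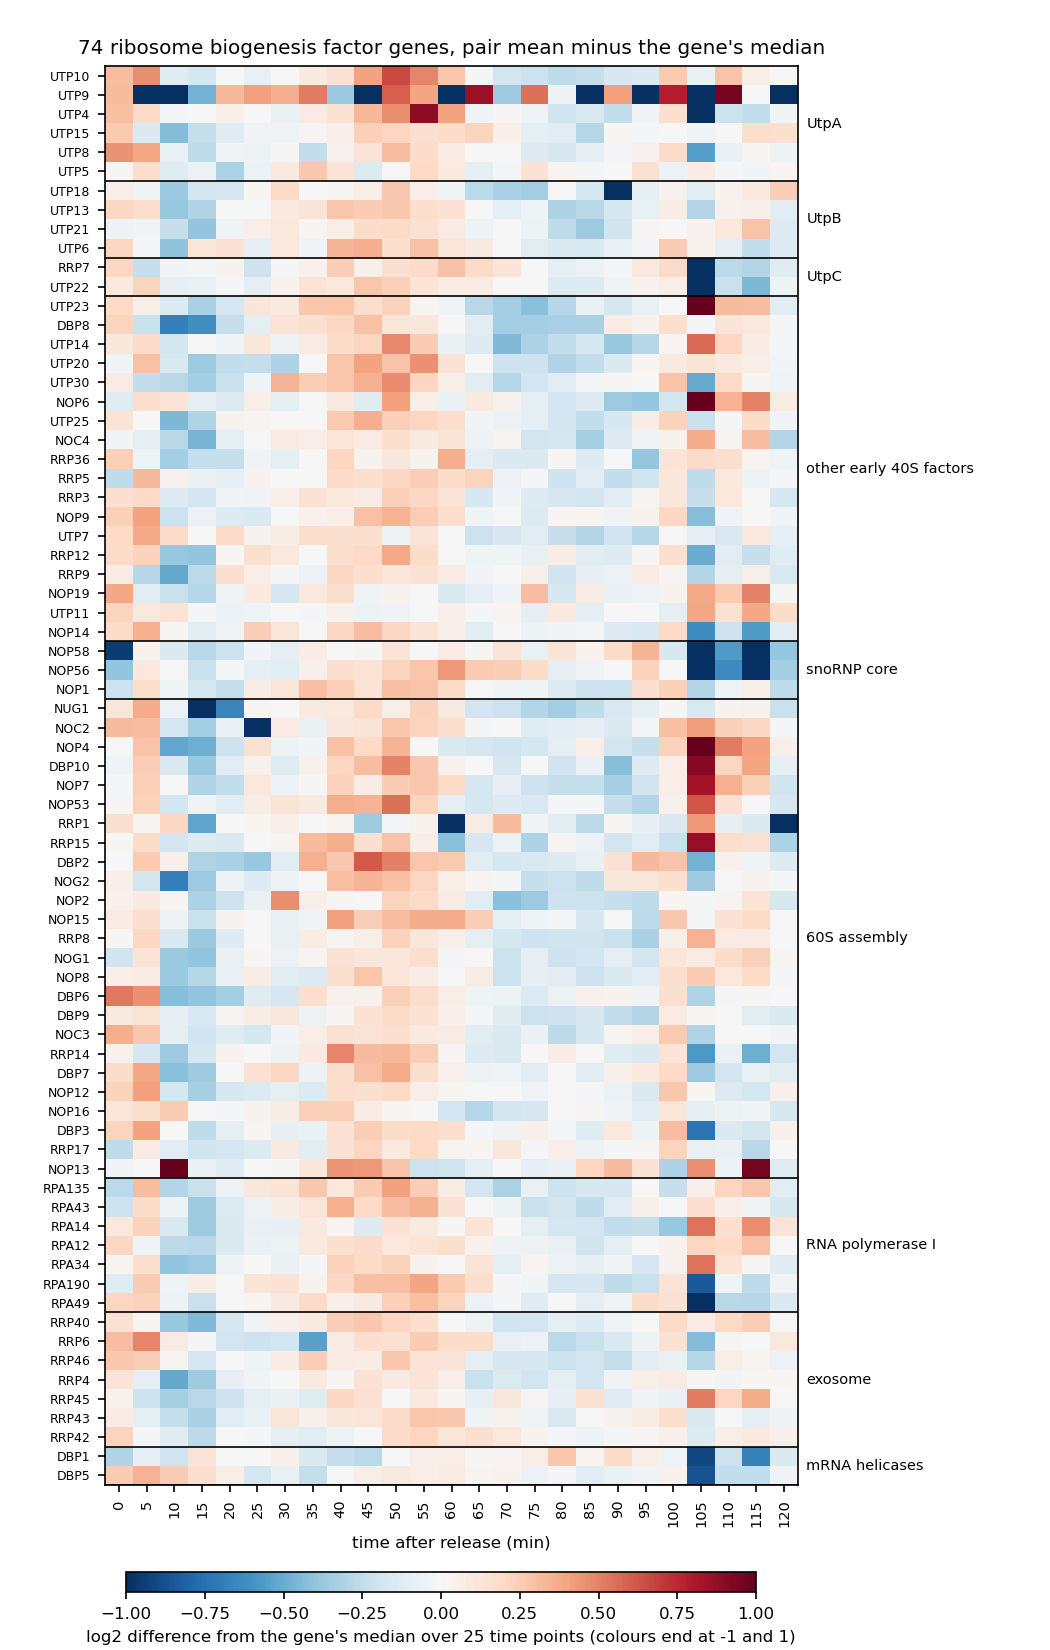
Pair means of the 74 genes at 25 time points, each minus the gene's own median, in log2 units; rows are grouped by role and ordered by amplitude, and colours end at -1 and 1. Most rows are low (blue) at 10 to 15 min and 70 to 95 min and high (red) at 40 to 55 min. The 105 min column holds both extremes, and isolated dark cells in UTP9, UTP18, NUG1, NOC2 and NOP13 hold values at the deposited limit.

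A spline of time with 6 degrees of freedom, which takes any smooth course, changed significantly in 51 of the 74 genes (68.9%). That was close to the background of 65.5% of all frames. With 4 degrees of freedom 16 of the 74 genes changed, against 54.6% of all frames.

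The early change was also tested directly, as the 4 time points from 40 to 55 min against those from 0 to 15 min, which share 1 date with the sample in Cy3. With limma's moderated test and adjustment over all frames 7 genes were higher at 40 to 55 min, which is 9.5% of the 74 genes against 8.69% of all frames, and 0 were lower, against 9.48%. At an unadjusted p under 0.05 27 genes were higher and 1 lower (DBP5). The share of all frames at that unadjusted threshold was not determined, so these counts have no background here. The unadjusted direction was more widely shared: 67 of 74 genes had a positive difference, against 51.3% of all frames, with a median of 0.26 against 0.01. The 7 genes were NOG2, UTP30, RRP14, RPA43, RRP9, NOP15 and UTP21.

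NOG2 read between -1.35 and -0.35 on the arrays from 0 to 15 min, lowest at 10 min (-1.35 and -1.32), and between -0.46 and -0.23 at 40 to 55 min. Its difference was 0.58 ± 0.15 (SE, 8 time points, adjusted p = 0.0287 by limma). RRP14, a 60S and 40S assembly protein that was not periodic, read -0.53 and -0.91 at 15 min and -0.05 and -0.06 at 40 min, a difference of 0.51 ± 0.10 (adjusted p = 0.0104 by limma). UTP30 differed by 0.52 ± 0.11 (adjusted p = 0.0137), RPA43 by 0.41, RRP9, a protein bound to U3 itself, by 0.41, NOP15 by 0.34 and UTP21 by 0.32. The count depended on the orientation and on the 0 min arrays. On the Cy3 arrays alone 15 genes were higher, on the Cy5 arrays alone 1, and in the pair means without 0 min 15. Of all frames 18%, 9.86% and 21.4% differed in these fits, in either direction.

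Levels in the second cycle (60 to 115 min) were set against those in the first (0 to 55 min) with a common cosine. By limma 10 of the 74 genes (13.5%) were lower in the second cycle, against 10.5% of all frames, and 1 was higher, against 10.3%. The median difference was -0.10, against 0.00 over all frames, and 55 of the 74 genes had a negative difference, against 49.5%. In the Cy3 samples the second cycle carries another date than the first, and in the Cy5 samples all of it but 60 min does, so that cycle and date cannot be told apart.

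UTP7 (YER082C), a WD-repeat protein of the early 40S precursor, had means of -0.07 in the first and -0.34 in the second cycle. The difference was -0.27 ± 0.05 (SE, 24 time points, adjusted p = 6.0e-04 by limma). At 5 min its arrays read 0.05 and 0.28 and at 85 min -0.55 and -0.45. RRP46 differed by -0.21 ± 0.05 (adjusted p = 0.0023), with means of 0.01 and -0.20. UTP4, NOP14 and RPA190 differed by -0.34, -0.27 and -0.26 (adjusted p = 0.034, 0.0199 and 0.0393). Without 105, 110 and 115 min these differences became -0.14, -0.13 and -0.12 and did not pass. The other genes called lower were UTP10, UTP14, NOP16, DBP9 and DBP5. RRP45 was the gene called higher (0.16 ± 0.06, adjusted p = 0.0456), and it did not pass on either orientation alone, without 105 min or without the earliest times.

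Ribosomal protein genes went the other way in this comparison: 68 of 137 were higher in the second cycle and 1 was lower, with a median difference of 0.18. Their median was 0.05 at 100 min but 0.52 at 105 min, and 0.42 at 115 min. The direction of the 2 lists was not compared in a test.

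At 105 min the 74 genes spread apart. Measured as the pair mean at 105 min minus the mean of 100 and 110 min, their deviations had an interquartile range of 0.63 log2 units, and those of all frames 0.61, so that the spread was not particular to these genes. Of the 74 genes 22 had their lowest value of the course at 105 min and 16 their highest. In 58 genes the deviation had the same sign on both dye orientations, and over the 73 genes without UTP9 the orientations correlated at 0.77, a description over genes that share 2 arrays. The shares of all frames were not determined for the counts of 22, 16 and 58 genes, so these counts have no background here. The 105 min Cy5 array is the only one of its date.

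NOP56 and NOP58, which pair in the box C/D ribonucleoprotein, deviated furthest below their neighbours apart from UTP9. NOP56 (YLR197W) read -0.26 and -0.14 at 100 min, -2.43 and -2.38 at 105 min and -0.87 and -0.81 at 110 min. It was at -1.29 and -1.24 in the 115 min arrays and at -0.64 and -0.44 in those of 120 min. NOP58 (YOR310C) read -0.02 and -0.77 at 100 min, -2.39 and -2.39 at 105 min and -1.48 and -1.63 at 115 min. Both orientations gave the lowest NOP56 values at 105 min and the next lowest at 115 min. NOP1, the methyltransferase of the same particle, deviated by -0.39.

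UTP22, UTP4, RRP7, RPA49 and RPA190 deviated by between -1.06 and -0.88. Both UtpC genes of the list are among them, and so are 2 of its 3 RNA polymerase I genes that were not periodic. In the other direction NOP6 deviated by 1.18, UTP23 by 1.10, RRP15 by 0.89, NOP4 by 0.80 and DBP10 by 0.77. UTP23 read 0.39 and 1.13 at 105 min after -0.78 and -0.22 at 100 min. With 105 min left out 49 genes were periodic instead of 36, against 40.0% of all frames instead of 33.7%. A part of the array date or of the sample in these deviations was not tested.

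**Figure D5:**
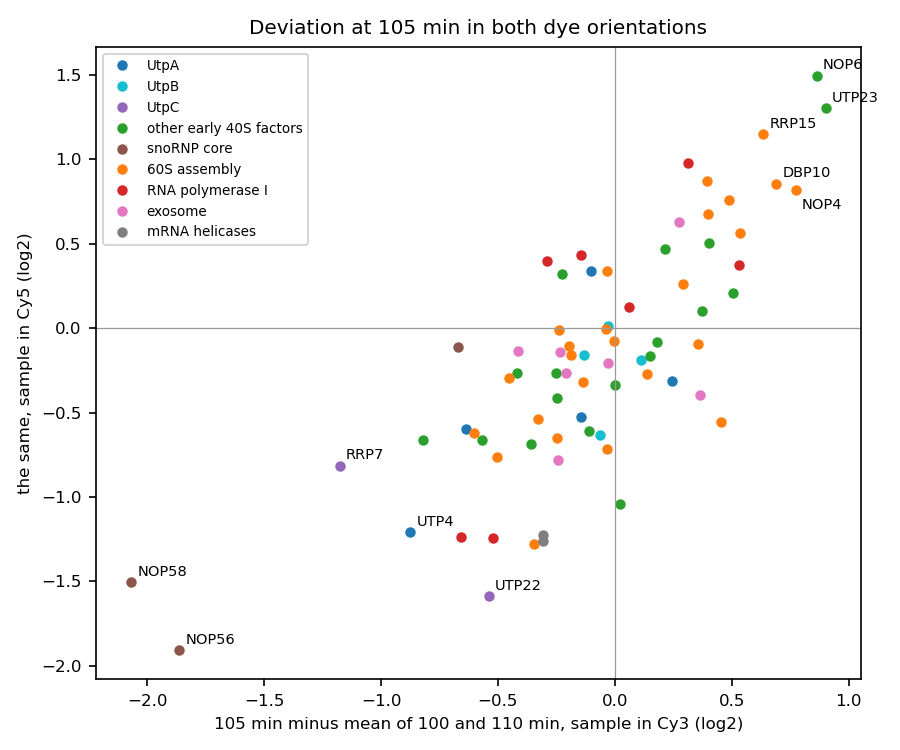
Deviation at 105 min from the mean of 100 and 110 min in log2 units, with the sample in Cy3 (horizontal) and in Cy5 (vertical), for 73 genes coloured by role. UTP9 is not drawn because its Cy3 value sat at the deposited limit. NOP56 and NOP58 lie furthest below 0 with the sample in Cy3, NOP56 also with the sample in Cy5, and NOP6 and UTP23 are highest on both axes.

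Among themselves the 74 genes correlated at a median Pearson r of 0.32 over 2701 gene pairs and 25 time points, of which 81.4% were positive, and at 0.40 without 105 min. These values are a description, since all genes share the same arrays. UTP13 followed the mean of the other genes most closely (r = 0.91), then RRP3 (0.88) and UTP10 (0.88). NOP13 (-0.25), DBP1 (-0.15) and UTP11 (-0.08) followed it least, and RRP1, NOP58, NOP6 and UTP9 had r between 0.03 and 0.09. Without 105 min NOP6 reached 0.37, while DBP1 was at -0.36. The genes least like the rest thus held 1 of the 2 mRNA helicases, genes with values at the limit and genes with extreme 105 min values.

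The level of the genes against the asynchronous culture was low for nearly all of the list. The median over the 25 time points was below 0 in 70 of the 74 genes, against 48.1% of all frames, and below 0 on both dye orientations in 69, against 33.6%. The typical gene had a median of -0.27. The exceptions in the pair mean were RRP1, NOP13, UTP11 and DBP5, at 0.00, 0.01, 0.02 and 0.03. The lowest medians, leaving out UTP9 with its Cy3 arrays at the limit, were those of NOP4 (-0.82), DBP10 (-0.67), NOP53 (-0.66) and NOG2 (-0.66). The sources used here do not give how the arrays were centred, and fewer cells of a state and less RNA per cell cannot be told apart in such bulk samples.

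The wider pathway was described with 133 measured ribosome biogenesis genes outside the symbol rule. Of these 76 (57.1%) were periodic against 33.7% of all frames, and 41 (30.8%) with dates as a block against 24%. Of the 76 genes 74 had a peak between 40 and 60 min, and their median course had its low points at 15 and 80 min (-0.55 and -0.43) and a high at 50 min (-0.07). The largest periodic amplitudes were those of KRI1, a 40S factor (0.39), DHR2, a helicase (0.36), CMS1 (0.35), GAR1, a core protein of H/ACA ribonucleoproteins (0.33), BUD20 and ECM1, which help export the 60S precursor (0.31 each), RIO1, a kinase of late 40S maturation (0.30), and ENP2 (0.30). Of these genes KRI1, CMS1, GAR1, BUD20, RIO1 and ENP2 had their highest value at 105 min. GAR1 was not periodic with the sample in Cy3 alone (adjusted p = 0.0541), nor ENP2 with the sample in Cy5 alone (0.193). ECM1 had an adjusted p of 4.36e-07, an amplitude of 0.31 ± 0.03 and a peak at 46.3 ± 1.0 min. Of 137 ribosomal protein genes 8 (5.8%) were periodic, and 7 with dates as a block, with a highest amplitude of 0.16.

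The 10 frames outside the symbol rule whose 25 values were most like the mean of the 74 genes had r from 0.85 to 0.87. They were DHR2, ERB1, SYO1, NSA1, RIX7, PWP1 and PNO1, all on the list of other biogenesis genes, with TRM11, YNL114C and URB1. TRM11 encodes a tRNA methyltransferase subunit and URB1 a nucleolar protein of 60S assembly. TRM11 had an amplitude of 0.34 and a peak at 46.6 min (adjusted p = 6.84e-05).

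Of 19 regulators of ribosome synthesis 8 (42.1%) were periodic, against 33.7% of all frames, and 6 (31.6%) with dates as a block, against 24%. In the block fit TOR2, IFH1, FHL1, RAP1 and CRF1 passed again (adjusted p from 0.0023 to 0.0438), DOT6, SCH9 and STB3 did not (0.0528, 0.123 and 0.144), and ABF1 was added (6.06e-04). The TOR kinase gene TOR2 had an amplitude of 0.30 and a peak at 58.1 min (adjusted p = 1.26e-05). IFH1 and FHL1, which act together at ribosomal protein promoters, peaked at 42.2 and 37.0 min (adjusted p = 0.0011 and 0.0217), RAP1, which binds the same promoters, at 40.2 min (4.82e-05) and CRF1, a corepressor there, at 30.6 min (7.01e-04). SCH9, the kinase downstream of TOR, peaked at 46.8 min (adjusted p = 0.03) and was higher by 0.66 ± 0.06 at 40 to 55 min than at 0 to 15 min (adjusted p = 5.44e-04 by limma). DOT6, a repressor of biogenesis genes, peaked at 44.3 min (adjusted p = 0.005). In the pair mean and also in each dye orientation alone, 4 of the 19 regulators (21.1%) were periodic, against 16.5% of all frames. FHL1 and SCH9 did not pass with the sample in Cy5 alone (adjusted p = 0.133 and 0.0837), nor CRF1 and DOT6 with the sample in Cy3 alone (0.0982 and 0.112).

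STB3, which binds a promoter element of biogenesis genes, peaked at 9.21 min with an amplitude of 0.19 (adjusted p = 3.46e-04). It was lower by 0.30 at 40 to 55 min than at 0 to 15 min (difference -0.30 ± 0.08, adjusted p = 0.0326 by limma). SFP1 and TOD6 were not periodic (adjusted p = 0.228 and 0.37), and neither were RIM15, ABF1, HMO1, KOG1, REB1, TOR1, MAF1, RPD3 and LST8. REB1 was nonetheless higher at 40 to 55 min than at 0 to 15 min, by 1.36 ± 0.14 (adjusted p = 8.95e-04 by limma). Levels of mRNA do not measure the activity of these proteins.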

How the data were processed

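The deposited values are log ratios of 50 two-colour arrays in 1 value table, taken here as log10 of Cy5 over Cy3 made by the authors; base and direction are inferences, since values end at -2 and 2 and arrays of a pair correlate at a median r of -0.472 as deposited. The sources used here do not give how the authors corrected background or normalized, and the table gives no spot brightness, so that the number of arrays limits precision. Of 6217 lines 13 named no frame and were left out; 5704 of 6204 frames took a symbol from the R64 gene table, and 500 kept the deposited name. Values were converted to log2, Cy3-sample arrays turned in sign, and the pair averaged; the 438 missing values were left missing and the 709 at the limit kept.

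All frames were fitted together in R 4.3.3 with limma 3.58.1 (lmFit and eBayes), with Benjamini-Hochberg adjustment over 6204 frames, calling adjusted p-values under 0.05. As period served that of 40 to 90 min with the highest mean R squared (0.71 at 66 min) over 51 cell cycle genes. Scripts were tested on simulated data. The members and lists were chosen with earlier results of these data known. Genes described in full were the 8 of largest amplitude among those periodic in both orientations, up to 5 of the largest called changes each way and up to 4 of the largest amplitudes per role. The planned search of promoters for motifs was not run, since promoter sequences were not used here.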

Additional observations from a re-analysis of the deposited data

How the results depend on the processing

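Results for single genes were counted once per gene and alternative, for the genes with the largest called amplitudes or changes. Of these counts 183 kept direction and side of the threshold, 39 kept the direction and no longer passed, and 0 reversed. All these genes were chosen as passing, so none could newly pass, and an amplitude has no sign to reverse. The periodic genes were also chosen as passing in each dye orientation, so their passing with 1 orientation alone was fixed by that choice. With 1 dye orientation alone 29 to 32 genes were periodic and 36 had a smooth course in each. In the pair means these were 36 and 51. Between cycles 4 to 9 genes differed and between early and late first cycle 1 to 15, against 11 and 7 in the pair means. Of all frames 23.9 to 27.5% were periodic with 1 orientation, and 55.1 to 57% had a smooth course. Between cycles 12.3 to 18.4% of all frames differed, and between early and late 9.86 to 18%. With quantile normalization between arrays 55 genes were periodic (against 45.1% of all frames). In that setting 20 differed between cycles (against 23.3%) and 4 between early and late (against 18%). Periodic genes numbered 18 with dates as a block (against 24% of all frames). They numbered 2 within the first (13.4%) and 6 within the second date (11%) of the Cy3 samples, where fewer arrays entered. A spline with 4 degrees of freedom called 16 genes, against 54.6% of all frames. Without the cosine covariates 4 genes differed between cycles (10.8% of all frames), and without the Cy3-sample array of 45 min 7 did (21.7%). Early and late differed in 15 genes without 0 min (21.4% of all frames) and in 11 without that 45 min array (20.5%). The cause of these shifts was not tested. The other alternatives, among them periods of 60 and 72 min, correlated errors, values at the limit taken as missing and leaving out 105 min, moved each of these 4 counts by less than 1.5 times, with 30 to 49 genes periodic. Leaving out 105 min and leaving out the 45 min array were chosen after seeing the data. No paired analysis was possible because each time point is 1 sample hybridised in both dyes.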
